A study of Mus musculus with 8 samples.

Results

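Collagen chain genes were examined in mouse skin that had been given the irritant MC903, with or without phytic acid. The members are the rows of the expression table whose gene name is Col, a number, a and a number, which gave 44 of the 21885 named genes. They were sorted by textbook class into 11 fibrillar chains, 8 fibril-associated chains, 8 basement membrane chains, 2 anchoring chains, 3 muscle-linked chains, 6 type VI chains, 3 short network chains and 3 others. The tested skin received MC903 plus phytic acid (4 libraries, called the phytic acid libraries) and the control skin received MC903 alone (4 libraries, called the MC903 libraries). MC903, also called calcipotriol, is an analogue of vitamin D that inflames mouse skin in a way that resembles atopic dermatitis, and phytic acid is inositol hexaphosphate, in which plant seeds store phosphate. Both groups carry the MC903 treatment and neither is untreated skin, so every difference below is relative to MC903 skin. The strain, sex, age, body site, doses and times were not given in the sources used here.

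Collagens are trimeric proteins with long triple helices, and each chain comes from a gene of its own. Fibrillar chains form the tensile fibres of the dermis, and fibril-associated chains coat those fibres. Type IV chains build the sheet of the basement membrane under the epidermis and around vessels, hair follicles, nerve and muscle. Type XVII collagen spans the membrane of basal keratinocytes at hemidesmosomes, and type VII collagen forms the fibrils that anchor the basement membrane to the dermis. Skin RNA holds collagen transcripts of fibroblasts, keratinocytes, vessels and any deeper tissue taken with the skin.

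Values are FPKM, fragments per kilobase of exon scaled to the total of the library. Library totals recovered from the table were 38310034 to 42997271 reads in the phytic acid libraries and 31676934 to 37639476 reads in the MC903 libraries. Since the labels do not tie each library to a mouse of its own, p-values here reflect only how far these samples vary, which could be technical variation. The labelled tissue was met by its markers: 8 keratinocyte genes summed to 5985 to 7195 FPKM in the phytic acid libraries and 7708 to 10710 FPKM in the MC903 libraries. Of these 8 genes, Krt15 and Krt10 were called higher and Krt14 and Dsg3 lower with phytic acid. Krt14 averaged 1357 FPKM with phytic acid and 5275 FPKM without, so the sum joins opposite changes and leans on that gene. MC903 library 3 stood apart from the rest. Its 8 hair follicle genes summed to 3292 FPKM, against 33.4 to 97.2 FPKM in the other MC903 libraries and 7.91 to 13.3 FPKM in the phytic acid libraries. Results that rest on that library are given with and without it. Markers of skeletal muscle were higher in the phytic acid libraries, with summed levels of 8787 to 9977 FPKM against 4121 to 4881 FPKM in the MC903 libraries, and 10 of the 11 tested were called higher. Among fibroblast markers 3 of 9 tested were called higher (Dpp4, Pi16 and Cd34), and their summed level was 95.3 to 160 FPKM in the phytic acid libraries and 80.1 to 106 FPKM in the MC903 libraries. Of the pericyte and smooth muscle markers 3 of 5 tested were called higher (summed 119 to 146 FPKM in the phytic acid libraries and 70.8 to 106 FPKM in the MC903 libraries), and of the adipocyte markers 2 of 8 (summed 228 to 470 FPKM in the phytic acid libraries and 129 to 230 FPKM in the MC903 libraries). Of 6 macrophage markers 3 were called higher (summed 834 to 1163 FPKM in the phytic acid libraries and 460 to 729 FPKM in the MC903 libraries). That sum was mostly Lyz2, which averaged 752 FPKM with phytic acid and 407 FPKM without. The other 3, Cd68, Mrc1 and Cd14, had log2 fold changes of -0.17, -0.03 and -0.0008 and were not called. Beside these counts of markers, 14.2% of all genes tested were called higher and 11.6% lower. The part of these cells, keratinocytes included, in the chain levels was not tested.

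With phytic acid, the type IV chains Col4a5 and Col4a6 and the fibril-associated chain Col14a1 were higher, and the basement membrane chain Col18a1 and the transmembrane chain Col23a1 were lower. The most abundant chains (Col17a1, Col3a1, Col1a2 and Col1a1, by mean FPKM over the 8 libraries) were not called. Of the 44 chains, 23 reached an FPKM of 1 in at least 4 libraries and were tested. Among them 3 were called higher and 2 lower by limma at a Benjamini-Hochberg adjusted p under 0.05, which is 21.7% of those tested. In the same fit 25.8% of the 12165 genes tested were called, 14.2% higher and 11.6% lower, so the share of chains called lies near the share of all genes. The 23 chains do not stand for the whole family, since 21 chains did not pass the filter. Col4a6 passed it through the phytic acid libraries alone, and Col4a5 through those and 1 MC903 library. The median log2 fold change (MC903 plus phytic acid minus MC903, of FPKM + 1) was 0.41 over the 23 chains and 0.05 over all genes tested. In bulk skin, fewer cells of a type and less RNA per cell cannot be told apart.

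**Figure D1:**
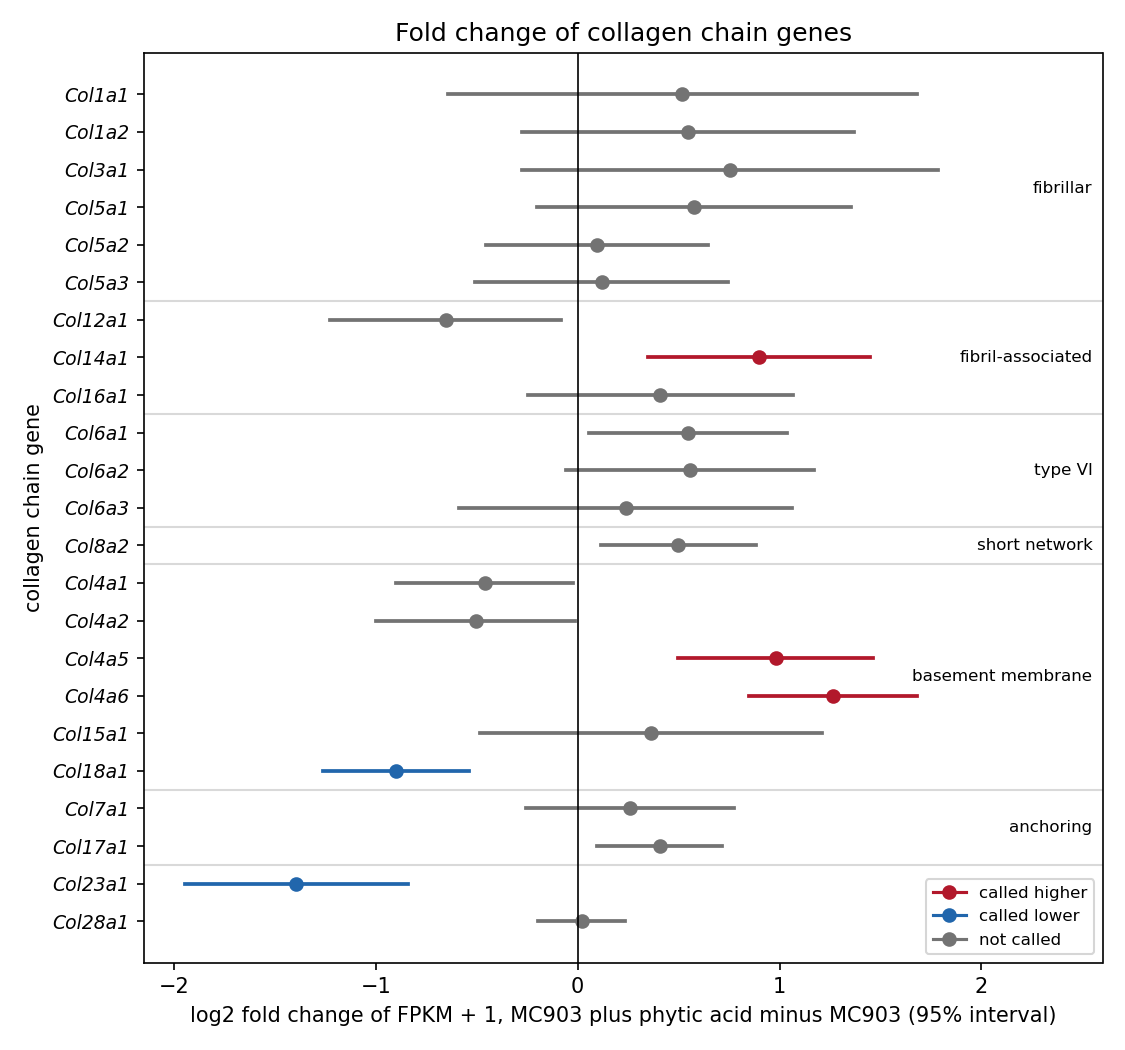
Log2 fold change of FPKM + 1 (MC903 plus phytic acid minus MC903, horizontal axis) of the 23 tested collagen chain genes (vertical axis, grouped by class), with 95% intervals over 4 libraries per group and the call by colour. Col4a5, Col4a6 and Col14a1 lie right of 0 and are called higher, Col18a1 and Col23a1 lie left of 0 and are called lower, and 12 of the intervals include 0.

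The other 18 tested chains were not called, with limma adjusted p-values of 0.0555 to 0.894 (Benjamini-Hochberg), 15 with a positive and 3 with a negative fold change. Over all 44 chains, the groups did not overlap for 4 chains with higher values in the phytic acid libraries (Col4a5, Col4a6, Col17a1 and Col20a1) and for 4 with lower values (Col18a1, Col23a1, Col13a1 and Col6a4). Those 8 chains are 18.2% of the family, against 21.6% of the 18483 genes with any reads (11.7% higher and 9.87% lower). Of the 8, 5 were among the 23 tested chains, where 27.3% of all tested genes had groups apart (14.3% higher and 13% lower). Without the filter on low values, all 44 chains were tested, and Col4a5 and Col4a6 were called higher and Col13a1, Col18a1 and Col23a1 lower. In that fit 16.5% of all genes were called, 8.99% higher and 7.49% lower. Together the 44 chains made up 0.230%, 0.167%, 0.0915% and 0.127% of the summed FPKM of phytic acid libraries 1 to 4, and 0.0867%, 0.0912%, 0.158% and 0.123% of that of MC903 libraries 1 to 4. The ranges overlapped, with phytic acid library 1 the highest and MC903 library 1 the lowest.

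In the basement membrane class 6 of 8 chains were tested and 3 were called, Col4a5 and Col4a6 higher and Col18a1 lower, against 25.8% of all genes tested. Col4a6 reached 1 FPKM in 0 MC903 libraries and Col4a5 in 1, so both met the filter through the group where they were high. The filter thus helped to set the share of this class, and a difference between classes was not tested. Its type IV chains lie in head-to-head pairs in the genome, Col4a1 and Col4a2 share 22 exonic bases at their starts, the starts of Col4a3 and Col4a4 lie 71 bases apart, and Col4a5 and Col4a6 lie 1308 bases apart on chromosome X (GENCODE M21 genes on GRCm38, which is the same assembly as mm10). In skin the chain pair of Col4a1 and Col4a2 forms the common network of nearly all basement membranes, whereas the chains of Col4a5 and Col4a6 join in a network found under the epidermis. Because the Col4a5 and Col4a6 genes are divergent neighbours and both were called higher, the 250 bases before each RefSeq start site are shown (RefSeq, GRCm38.p6). Col4a5 is on the plus strand (chrX:141475169-141475418) and Col4a6 on the minus strand (chrX:141474077-141474326), each read 5′ to 3′ on its own strand. Capitals mark the CCAAT box and the GC box GGGCGG, which appears as CCGCCC where it lies on the opposite strand.
Col4a5: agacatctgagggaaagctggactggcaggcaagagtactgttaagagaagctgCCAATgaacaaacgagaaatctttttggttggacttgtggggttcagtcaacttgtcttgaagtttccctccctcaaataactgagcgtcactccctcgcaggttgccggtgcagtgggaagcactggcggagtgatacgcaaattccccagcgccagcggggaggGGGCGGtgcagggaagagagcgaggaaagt
Col4a6: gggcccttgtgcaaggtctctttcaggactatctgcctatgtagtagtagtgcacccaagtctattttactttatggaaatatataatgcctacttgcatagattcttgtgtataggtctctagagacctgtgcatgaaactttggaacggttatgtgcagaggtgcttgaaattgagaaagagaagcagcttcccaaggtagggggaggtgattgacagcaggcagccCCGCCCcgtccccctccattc

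The RefSeq start sites of the pair lie 1343 bases apart. The Col4a5 stretch held 1 CCAAT and 1 GGGCGG and had a GC content of 54%, and the Col4a6 stretch held 1 GGGCGG on the opposite strand, no CCAAT, and had a GC content of 47.6%. Neither stretch held TATAAA or TGANTCA, searched like the others on both strands. Of 32851 promoter stretches of the same length, 33.8% held CCAAT, 32.7% GGGCGG, 12.4% TATAAA and 6.75% TGANTCA, and their median GC content was 52.4%. The motif matches are descriptions of these letters only. A promoter sequence was found for 35 of the 44 chains.

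Col4a6 was at 2.21, 2.84, 3.27 and 1.68 FPKM in phytic acid libraries 1 to 4, and at 0.356, 0.329, 0.926 and 0.221 FPKM in MC903 libraries 1 to 4. Every phytic acid library was above every MC903 library, and MC903 library 3 was the highest of its group. The means were 2.50 ± 0.70 FPKM with phytic acid and 0.458 ± 0.317 FPKM without (SD, n = 4 each), a ratio of 5.45. The log2 fold change was 1.26 ± 0.19 (SE; limma with Benjamini-Hochberg adjustment, adjusted p = 0.00175), and without MC903 library 3 it was 1.41 (adjusted p = 3.8e-04). The values rest on 546 to 1121 reads in the phytic acid libraries and 66 to 278 reads in the MC903 libraries.

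Its neighbour Col4a5 was at 3.61, 2.86, 3.01 and 2.39 FPKM in phytic acid libraries 1 to 4, and at 0.634, 0.836, 2.22 and 0.649 FPKM in MC903 libraries 1 to 4. The groups did not overlap, but MC903 library 3 lay just below the lowest phytic acid library. The mean was 2.97 ± 0.50 FPKM with phytic acid and 1.09 ± 0.76 FPKM without (SD, n = 4 each), and the log2 fold change was 0.98 ± 0.21 (SE; limma, Benjamini-Hochberg adjusted p = 0.0105). Without MC903 library 3 it was 1.21 (adjusted p = 2.1e-04). On recovered reads, where voom adds less than 1 read before taking logs (a fit chosen after seeing the data), the log2 fold changes were larger, 1.63 ± 0.34 for Col4a5 and 2.61 ± 0.40 for Col4a6 (SE; limma voom adjusted p = 0.0095 for Col4a5 and 0.0025 for Col4a6).

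The chains of the common network did not show that pattern. Col4a1 was at 26.3, 27.8, 19.8 and 19.5 FPKM in phytic acid libraries 1 to 4, and at 26.1, 24.6, 40.2 and 40.9 FPKM in MC903 libraries 1 to 4. Col4a2 was at 16.7, 19.9, 13.1 and 11.4 FPKM in phytic acid libraries 1 to 4, and at 17.3, 16.3, 28.1 and 27.6 FPKM in MC903 libraries 1 to 4. For both genes the groups overlapped, with MC903 libraries 3 and 4 above all others and the other MC903 libraries among the phytic acid ones. The log2 fold changes of -0.46 ± 0.20 for Col4a1 and -0.51 ± 0.22 for Col4a2 (SE) were not called (limma, Benjamini-Hochberg adjusted p = 0.113 for Col4a1 and 0.119 for Col4a2). With median-of-ratios scaling both were called lower, Col4a1 at -0.54 (adjusted p = 0.0383) and Col4a2 at -0.58 (adjusted p = 0.0470). As a share of Col4a1 plus Col4a2 in the same library, which does not depend on library scaling, Col4a5 plus Col4a6 stood at 13.5%, 11.9%, 19.1% and 13.2% in phytic acid libraries 1 to 4, and at 2.28%, 2.84%, 4.61% and 1.27% in MC903 libraries 1 to 4. Every phytic acid library was above every MC903 library. This share was chosen after the values were seen and was not tested.

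The third pair, Col4a3 and Col4a4, which with Col4a5 make the network of the kidney filter, was low. Col4a4 was at 0.849, 1.24, 0.747 and 0.899 FPKM in phytic acid libraries 1 to 4, and at 0.488, 0.512, 0.754 and 0.529 FPKM in MC903 libraries 1 to 4. MC903 library 3 lay just above phytic acid library 3, so that the groups overlapped. Col4a4 did not pass the filter; in the fit on recovered reads of 14508 genes it was called higher, by 0.69 ± 0.22 (SE; limma voom, Benjamini-Hochberg adjusted p = 0.0485). In that fit 35 chains were tested, 4 were called higher (Col4a5, Col4a6, Col14a1 and Col4a4) and 3 lower (Col18a1, Col23a1 and Col6a4), against 21.7% of all genes (12.1% higher and 9.62% lower). Col4a3 averaged 0.414 ± 0.197 FPKM with phytic acid and 0.265 ± 0.104 FPKM without (SD, n = 4 each), and 5.65% of its exon bases are shared with an antisense gene whose reads cannot be told apart here.

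Col18a1 and Col15a1 encode the multiplexins, basement membrane collagens with interrupted helices; the end of the Col18a1 chain is released as endostatin. Col18a1 (chr10:77052178-77166548, minus strand) was at 6.71, 6.51, 3.98 and 5.05 FPKM in phytic acid libraries 1 to 4, and at 9.35, 11.4, 10.4 and 13.6 FPKM in MC903 libraries 1 to 4. Every phytic acid library was below every MC903 library. The mean was 5.57 ± 1.29 FPKM with phytic acid and 11.2 ± 1.8 FPKM without (SD, n = 4 each), and the log2 fold change was -0.90 ± 0.16 (SE; limma, Benjamini-Hochberg adjusted p = 0.00425). The call was made without MC903 library 3 too (-0.93, adjusted p = 0.0048). Markers of endothelium summed to 49.9 to 55.2 FPKM in the phytic acid libraries and 46.0 to 60.2 FPKM in the MC903 libraries, and none of the 7 was called by limma or had an unadjusted p under 0.05. The keratinocyte marker sum was lower in every phytic acid library than in any MC903 library, but its members went both ways. Krt14 averaged 1357 FPKM with phytic acid and 5275 FPKM without. Krt10 averaged 2508 FPKM with phytic acid and 794 FPKM without, and Krt15 459 FPKM with and 119 FPKM without. The sum therefore gives no single direction for keratinocyte RNA. The part of either cell type in the Col18a1 level was not tested. Col15a1 ranged from 2.18 to 10.6 FPKM in the phytic acid libraries and from 2.32 to 6.21 FPKM in the MC903 libraries, and was not called.

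**Figure D2:**
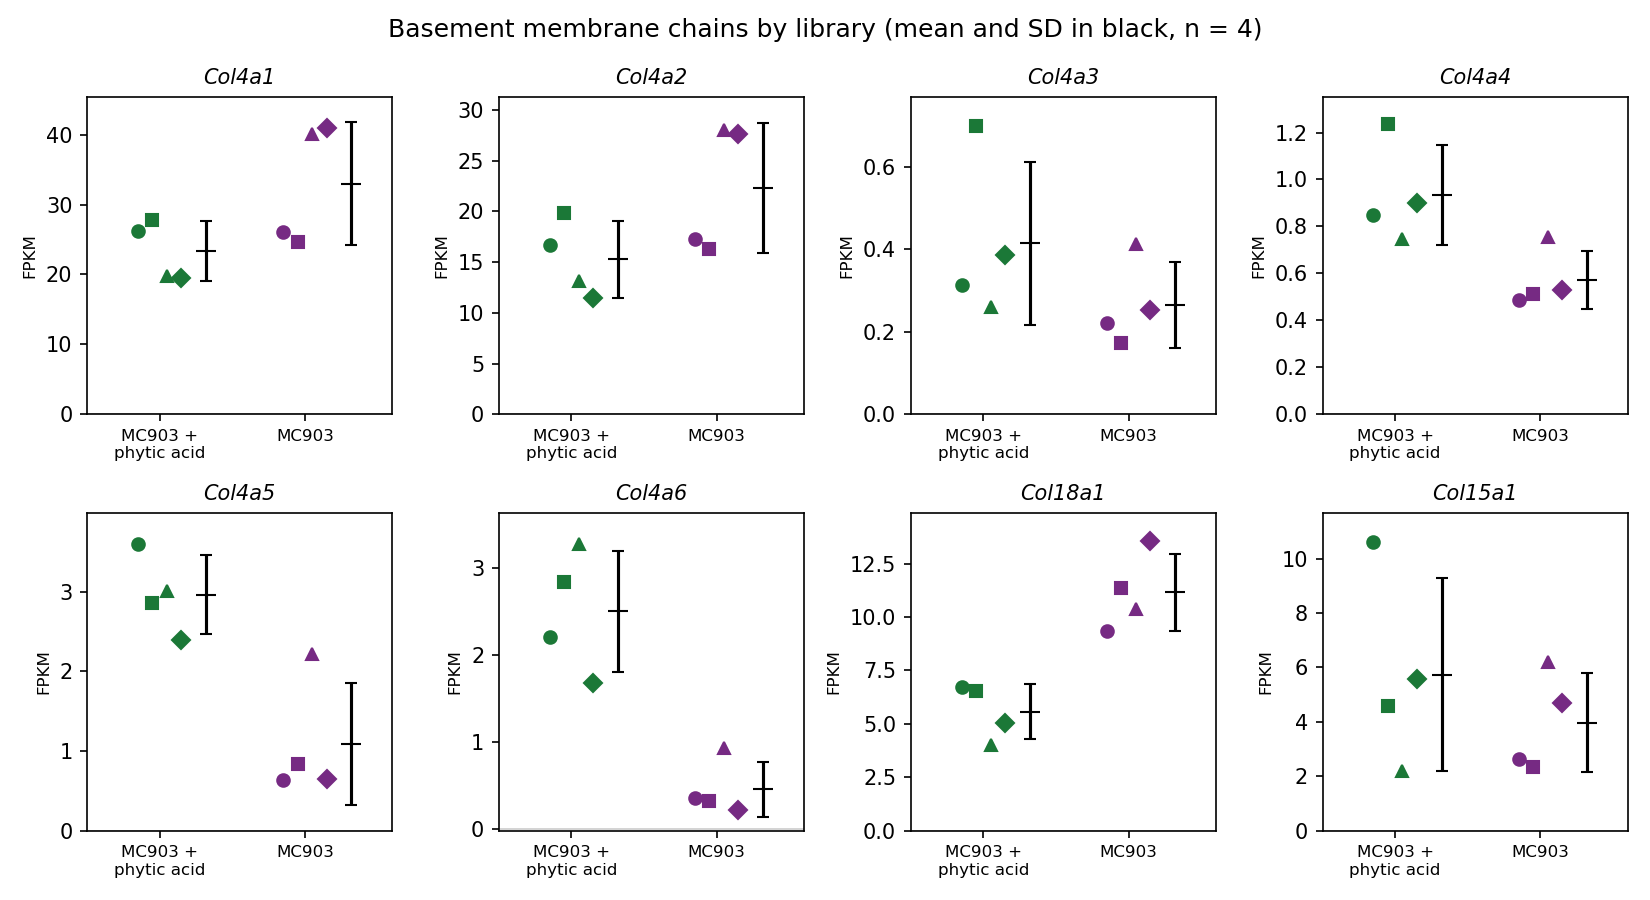
FPKM (vertical axes, linear, from 0) of the 8 basement membrane chain genes in 4 libraries of MC903 plus phytic acid and 4 of MC903 (circle, square, triangle and diamond for libraries 1 to 4), with mean and SD in black. The groups are separate for Col4a5, Col4a6 and Col18a1 and overlap for the other 5 genes; MC903 library 3 is the highest MC903 point for Col4a5 and Col4a6.

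Fibrillar chains showed a wide spread between libraries of a group, and none was called by limma with or without the filter. On recovered reads, where Col5a1 and Col2a1 were not tested, none of the other 9 was called by limma voom. Of 11, 6 were tested: Col1a1 and Col1a2, which form type I collagen, Col3a1, which forms type III, and the type V chains Col5a1, Col5a2 and Col5a3, which set fibril width. Their log2 fold changes were all positive, 0.10 to 0.75, with limma adjusted p-values of 0.252 to 0.804 (Benjamini-Hochberg) and no unadjusted p under 0.05. Those of Col5a2 and Col5a3 turned negative when single libraries were left out: Col5a2 was -0.10 and Col5a3 -0.14 without phytic acid library 1, and Col5a3 was -0.02 without MC903 library 2. With libraries weighted by quality, Col3a1 (1.19, limma adjusted p = 0.0394) and Col5a1 (0.89, limma adjusted p = 0.0298) were called higher.

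Col3a1 was at 160, 65.6, 28.5 and 72.0 FPKM in phytic acid libraries 1 to 4, and at 24.8, 36.5, 64.2 and 44.1 FPKM in MC903 libraries 1 to 4. Phytic acid library 1 was far above the rest, and phytic acid library 3 lay inside the MC903 range. The mean was 81.5 ± 55.6 FPKM with phytic acid and 42.4 ± 16.5 FPKM without (SD, n = 4 each), and the log2 fold change of 0.75 ± 0.46 (SE) had an interval of -0.27 to 1.78 (limma, Benjamini-Hochberg adjusted p = 0.258).

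Col1a1 was at 110, 61.8, 19.1 and 36.5 FPKM in phytic acid libraries 1 to 4, and at 25.4, 22.4, 71.8 and 26.7 FPKM in MC903 libraries 1 to 4. Within the phytic acid group the highest library had 5.75 times the lowest, and MC903 library 3 had 2.83 times the median of the other MC903 libraries. Without MC903 library 3 the log2 fold change of Col1a1 was 0.89 (adjusted p = 0.178) against 0.52 with it (limma adjusted p = 0.496), and that of Col3a1 was 0.98 (adjusted p = 0.145). Over the class, summed levels were 406, 212, 89.0 and 174 FPKM in phytic acid libraries 1 to 4, and 95.3, 102, 227 and 122 FPKM in MC903 libraries 1 to 4. The sum of 10 fibroblast markers was 160, 123, 95.3 and 144 FPKM in phytic acid libraries 1 to 4, and 80.1, 87.7, 106 and 98.3 FPKM in MC903 libraries 1 to 4. In both sums phytic acid library 1 was the highest and phytic acid library 3 the lowest of its group, while libraries 2 and 4 stood in opposite order. The MC903 libraries stood in the same order. The sum of 4 tendon markers was 23.1, 14.9, 10.4 and 13.3 FPKM in phytic acid libraries 1 to 4. In MC903 libraries 1 to 4 it was 5.27, 6.89, 21.4 and 5.76 FPKM, and 0 of the 3 tested were called. Of the 9 fibroblast markers tested, 8 had a positive log2 fold change, with a median of 0.37. Among these 9, 3 were called higher, against 14.2% of all genes tested. Pdgfra and Pdgfrb were flat, at log2 fold changes of 0.004 and -0.01. The part of fibroblasts or tendon in the fibrillar levels was not tested.

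**Figure D3:**
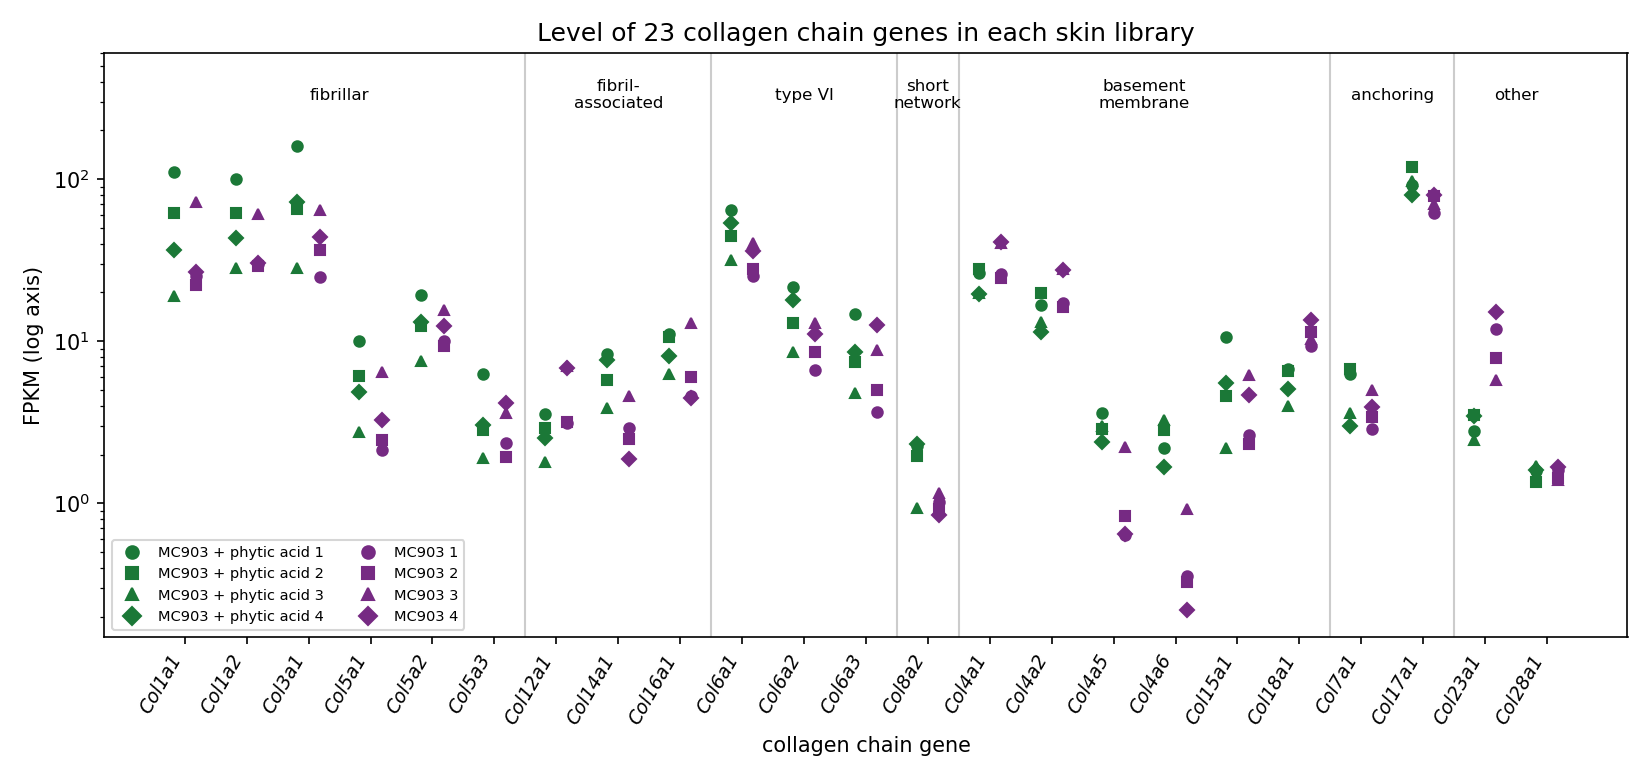
FPKM on a log axis (vertical) of the 23 tested collagen chain genes (horizontal, grouped by class) in 4 libraries of MC903 plus phytic acid (green) and 4 of MC903 (purple), with 1 symbol per library number. Phytic acid library 1 (circle) is the highest and phytic acid library 3 (triangle) the lowest of its group for most fibrillar chains, and MC903 library 3 (triangle) is the highest MC903 point for Col1a1, Col1a2 and Col3a1.

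The same libraries set the extremes across the family. Of the 23 tested chains, phytic acid library 1 was the highest of its group for 15 and phytic acid library 3 the lowest for 16, and MC903 library 3 was the highest of its group for 16. The other 5 fibrillar genes were below the filter. Col2a1, the cartilage fibril chain, had at most 12 reads in any library. Col11a1 was at 0.153 to 0.324 FPKM in the phytic acid libraries and at 0.193, 0.191, 2.95 and 0.130 FPKM in MC903 libraries 1 to 4, so a single library carried it. Of 8 cartilage markers, Acan, Matn3, Matn4, Hapln1, Sox9 and Chad were the highest of the MC903 group in that library. Acan was at 0.434 FPKM there, against 0 in the other MC903 libraries, and Sox9 at 18.2 FPKM, against 6.22 to 8.98 FPKM. Matn3 was at only 0.0529 FPKM there, and Hapln1 at 0.153 FPKM, against 0.139 FPKM in MC903 library 1. In the phytic acid libraries, where Col11a1 was low, Acan was at 0 to 0.0140 FPKM and Sox9 at 12.0 to 17.0 FPKM. Chad was at 0.336 to 0.833 FPKM in those libraries, above its 0.285 FPKM in MC903 library 3. Cnmd was higher in MC903 library 2, and Matn1 was at 0 in every MC903 library. The part of cartilage in the Col11a1 level was not tested. Col27a1 was at 0.697, 0.485, 0.275 and 0.380 FPKM in phytic acid libraries 1 to 4, and at 0.104, 0.161, 0.341 and 0.222 FPKM in MC903 libraries 1 to 4, with overlap (limma voom adjusted p = 0.0640, Benjamini-Hochberg). Col11a2 and Col24a1 stayed below 0.4 FPKM in every library.

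Chains that join in 1 molecule or fibril were compared as ratios within a library, which no scaling of libraries can move. The log2 ratio of Col1a1 to Col1a2 averaged -0.17 ± 0.31 with phytic acid and -0.14 ± 0.26 without (SD, n = 4 each; difference -0.03, exact two-sided permutation p = 0.857). The Col3a1 to Col1a1 ratio differed by 0.24 (exact permutation p = 0.486) and the Col5a1 to Col1a1 ratio by 0.19 (exact permutation p = 0.400). The Col4a1 to Col4a2 ratio differed by 0.06 (exact permutation p = 0.457) and the Col6a1 to Col6a2 ratio by -0.04 (exact permutation p = 0.686). None of the 5 differences exceeded the spread between libraries, and after Benjamini-Hochberg adjustment the p-values were 0.810 to 0.857, where 4 against 4 libraries can reach 0.0286 before adjustment. After adjustment over the 5 ratios, a ratio that changed alone could not have come under 0.05. The adjusted p-values therefore could not detect a change of a single ratio. The Col4a1 to Col4a2 ratio lay between 1.40 and 1.71 in the phytic acid libraries and between 1.43 and 1.51 in the MC903 libraries, while the level of Col4a1 itself varied 2.10-fold over the 8 libraries.

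Fibril-associated chains gave 1 call among 3 tested of 8, against 25.8% of all genes tested. Col14a1 (chr15:55307750-55520803, plus strand), a chain that binds collagen fibrils in the dermis, was at 8.37, 5.74, 3.89 and 7.65 FPKM in phytic acid libraries 1 to 4, and at 2.92, 2.49, 4.63 and 1.88 FPKM in MC903 libraries 1 to 4. The groups overlapped, as phytic acid library 3 lay below MC903 library 3. The mean was 6.41 ± 2.01 FPKM with phytic acid and 2.98 ± 1.18 FPKM without (SD, n = 4 each), and the log2 fold change was 0.90 ± 0.24 (SE; limma, Benjamini-Hochberg adjusted p = 0.0251). The call rested on the full set of libraries: it was lost without phytic acid library 1, 2 or 4 or MC903 library 1, 2 or 4 (log2 fold change 0.76 to 0.93, adjusted p = 0.0504 to 0.0674) and without the filter (adjusted p = 0.0537). Without MC903 library 3 the change was 1.08 (adjusted p = 0.0065).

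Col12a1, another fibril-coating chain, was lower in mean, at 2.71 ± 0.74 FPKM with phytic acid and 5.04 ± 2.18 FPKM without (SD, n = 4 each), but was not called (limma, Benjamini-Hochberg adjusted p = 0.0893). With median-of-ratios scaling (-0.72, adjusted p = 0.0411) and with quantile normalization (-0.73, adjusted p = 0.0299) it was called lower. Col16a1, found near the dermal-epidermal junction, was at 6.29 to 11.1 FPKM in the phytic acid libraries and at 4.61, 6.02, 12.9 and 4.45 FPKM in MC903 libraries 1 to 4. MC903 library 3 was above every other library, and without it Col16a1 was called higher (0.71, adjusted p = 0.0184), against 0.41 with it (limma adjusted p = 0.335). Col20a1 was low, at 0.453 to 0.716 FPKM in the phytic acid libraries and 0.184 to 0.444 FPKM in the MC903 libraries; the groups did not overlap and it was not called (0.29 without the filter, limma adjusted p = 0.0520). The type IX chains and Col19a1 were below 0.5 FPKM in every library.

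Type VI collagen forms beaded microfibrils around dermal cells, muscle fibres and nerves. Its main chains Col6a1, Col6a2 and Col6a3 were tested and not called. Col6a1 was at 64.3, 44.3, 31.6 and 53.8 FPKM in phytic acid libraries 1 to 4, and at 25.3, 28.0, 40.4 and 35.9 FPKM in MC903 libraries 1 to 4, and phytic acid library 3 lay among the MC903 values. Without phytic acid library 3, Col6a1 (0.73, adjusted p = 0.0242), Col6a2 (0.79, adjusted p = 0.0397) and the short network chain Col8a2 (0.68, adjusted p = 0.0043) were called higher; with it the limma adjusted p-values were 0.0967 for Col6a1, 0.167 for Col6a2 and 0.0588 for Col8a2. Col6a3 had a log2 fold change of 0.24, and of -0.01 without phytic acid library 1 or MC903 library 1.

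Col6a4, a low type VI chain, went the other way. It was at 0.0115, 0.0153, 0 and 0.0316 FPKM in phytic acid libraries 1 to 4, and at 0.726, 0.205, 0.0935 and 0.778 FPKM in MC903 libraries 1 to 4. These values are 20 reads in all phytic acid libraries together and 530 reads in the MC903 libraries, and the groups did not overlap. In phytic acid library 3 a count of 0 allows up to 0.00818 FPKM if every read is counted on its own. Most fragments appear to be counted by both ends, so that limit is too low and the fragments are fewer than these reads. Col6a4 was called lower on recovered reads (log2 fold change -5.04 ± 1.29, SE; limma voom, Benjamini-Hochberg adjusted p = 0.0223) and not on log2(FPKM + 1) without the filter (adjusted p = 0.0720), where the added 1 exceeds every value. Col6a5 and Col6a6 were at 0.203 to 1.19 FPKM in the phytic acid libraries and 0.214 to 0.550 FPKM in the MC903 libraries, and were not called in either fit.

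Both anchoring chains were tested and not called. Col17a1 (chr19:47646344-47692094, minus strand) had the highest mean of the 44 chains. It was at 91.6, 119, 96.9 and 80.1 FPKM in phytic acid libraries 1 to 4, and at 61.5, 78.3, 70.6 and 79.5 FPKM in MC903 libraries 1 to 4. The groups did not overlap, by the narrow margin between phytic acid library 4 and MC903 library 4. The mean was 96.9 ± 16.2 FPKM with phytic acid and 72.5 ± 8.3 FPKM without (SD, n = 4 each), and the log2 fold change of 0.41 ± 0.14 (SE) missed the threshold (limma, Benjamini-Hochberg adjusted p = 0.0555). It was called without phytic acid library 4 (0.49, adjusted p = 0.0372) and with libraries weighted by quality (0.47, adjusted p = 0.0212). Col7a1 averaged 4.91 ± 1.87 FPKM with phytic acid and 3.81 ± 0.92 FPKM without (SD, n = 4 each; log2 fold change 0.26, limma adjusted p = 0.441).

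None of the muscle-linked chains passed the filter. Col22a1, a chain of the junction between muscle and tendon, was at 0.00533 to 0.0587 FPKM in the phytic acid libraries and 0.0206 to 0.0318 FPKM in the MC903 libraries. Col25a1, a membrane collagen needed in mice for motor nerves to reach muscle, was at 0.0188 to 0.0395 FPKM in the phytic acid libraries and 0.0185 to 0.0857 FPKM in the MC903 libraries. Both overlapped between groups, although the skeletal muscle markers given above were higher in every phytic acid library than in any MC903 library by their sum. Col13a1, a membrane collagen of the neuromuscular junction that other cells also make, was lower. It was at 0.225, 0.162, 0.323 and 0.283 FPKM in phytic acid libraries 1 to 4, and at 0.708, 1.07, 0.499 and 0.497 FPKM in MC903 libraries 1 to 4. The groups did not overlap, and the fit without the filter called it lower (-0.43, limma, Benjamini-Hochberg adjusted p = 0.0300). It had no recovered reads, because its values were not whole multiples of a read.

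Among the other chains, Col23a1, a transmembrane collagen, had the most negative log2 fold change of the 23 tested. Col23a1 (chr11:51289920-51583918, plus strand) was at 2.78, 3.50, 2.47 and 3.44 FPKM in phytic acid libraries 1 to 4, and at 11.9, 7.88, 5.73 and 15.2 FPKM in MC903 libraries 1 to 4. Every phytic acid library was below every MC903 library, and MC903 library 3 was the lowest of its group. The mean was 3.05 ± 0.50 FPKM with phytic acid and 10.2 ± 4.2 FPKM without (SD, n = 4 each), a ratio of 0.299. The log2 fold change was -1.39 ± 0.25 (SE; limma, Benjamini-Hochberg adjusted p = 0.00396), and without MC903 library 3 it was -1.61 (adjusted p = 4.8e-04).

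Col28a1, a chain known from peripheral nerve in mice, was at 1.35 to 1.71 FPKM in the phytic acid libraries and at 1.39 to 1.67 FPKM in the MC903 libraries. Its log2 fold change of 0.02 had an interval of -0.20 to 0.24 and took a negative sign with median-of-ratios scaling (-0.03) and quantile normalization (-0.09). Schwann cell markers summed to 67.6 to 90.6 FPKM in the phytic acid libraries and 38.6 to 54.9 FPKM in the MC903 libraries. Of the 7, 4 were called higher, against 14.2% of all genes tested. Of the 21 chains below the filter, 8 had a mean under 0.1 FPKM over the 8 libraries. They included the cartilage chains Col2a1, Col9a1 and Col10a1, of which Col9a1 had 4 reads in all phytic acid libraries together and 4 in the MC903 libraries.

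**Figure D4:**
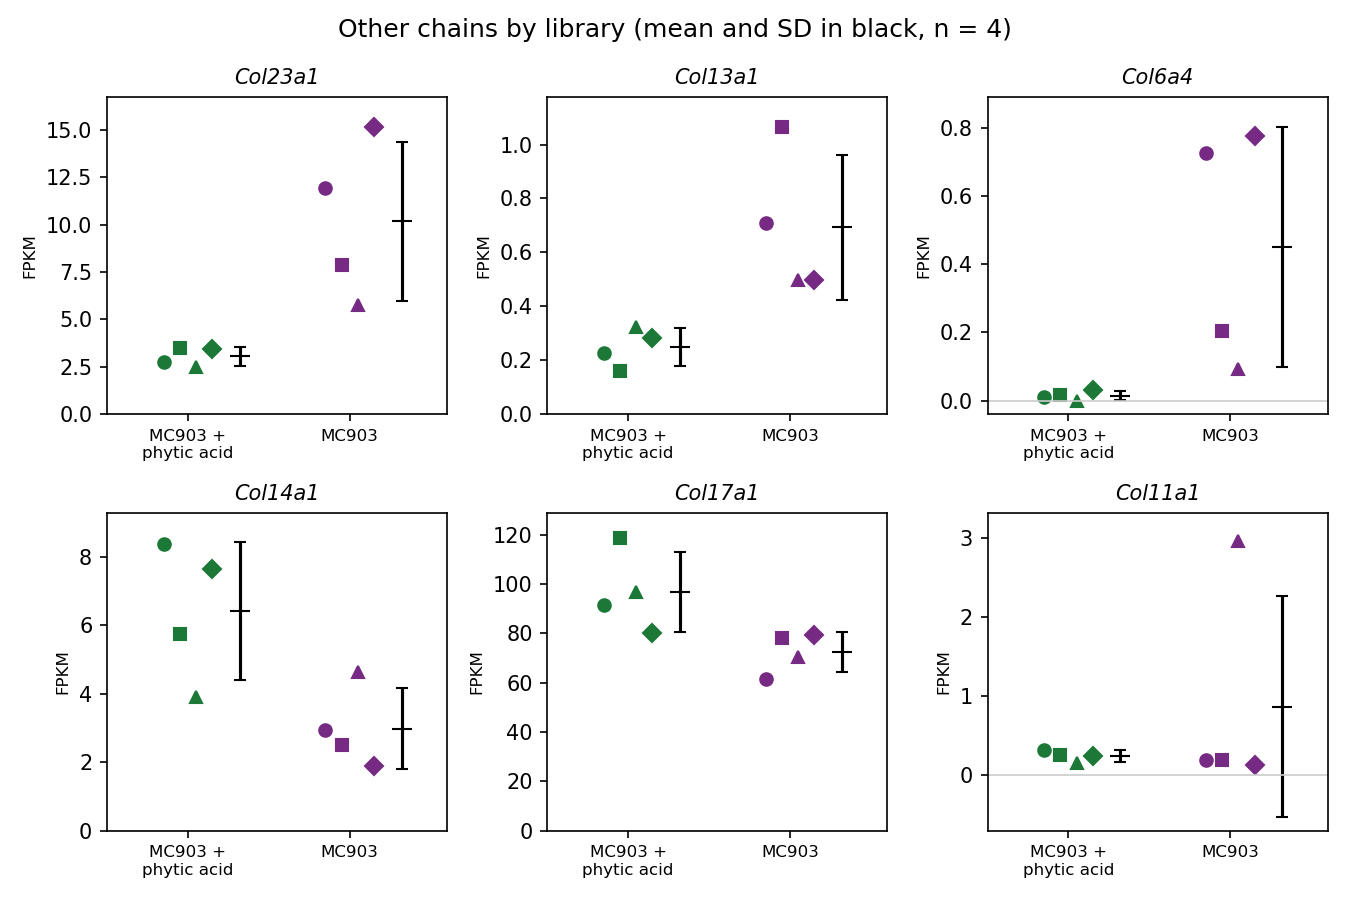
FPKM (vertical axes, linear) of Col23a1, Col13a1, Col6a4, Col14a1, Col17a1 and Col11a1 in 4 libraries of MC903 plus phytic acid and 4 of MC903 (circle, square, triangle and diamond for libraries 1 to 4), with mean and SD in black. The phytic acid points lie below all MC903 points for Col23a1, Col13a1 and Col6a4 and above them for Col17a1, and MC903 library 3 alone is high for Col11a1.

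Genes that make, trim, bind and break collagen were then taken from lists of known function. Of the chain modification and secretion genes, 19 of 21 were tested, and the median log2 fold change was 0.14. Among these 19, 1 was called higher and 1 lower, against 14.2% higher and 11.6% lower among all genes tested. P4hb, a subunit of prolyl 4-hydroxylase and a general protein disulfide isomerase, averaged 153 ± 13 FPKM with phytic acid and 223 ± 33 FPKM without (SD, n = 4 each; log2 fold change -0.53, limma, Benjamini-Hochberg adjusted p = 0.0157; 0.0505 without MC903 library 1). P3h2, a prolyl 3-hydroxylase, was called higher by 0.40 (limma adjusted p = 0.0342), a call lost without any single one of 5 libraries (phytic acid libraries 1, 2 and 4 and MC903 libraries 1 and 4; adjusted p = 0.0698 to 0.0996) and with other scalings.

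Of the processing and cross-linking genes, 10 of 13 were tested and 2 were called, both higher, with a median of 0.07. Among all genes tested 14.2% were called higher and 11.6% lower. Pcolce2, which speeds the removal of the procollagen C-terminal end, was at 18.5, 17.2, 18.7 and 19.6 FPKM in phytic acid libraries 1 to 4, and at 10.2, 10.6, 8.31 and 7.68 FPKM in MC903 libraries 1 to 4. The groups were far apart (log2 fold change 0.95 ± 0.11, SE; limma, Benjamini-Hochberg adjusted p = 6.9e-04). Adamts14, a protease that removes the N-terminal end, averaged 3.41 ± 0.98 FPKM with phytic acid and 0.951 ± 0.451 FPKM without (SD, n = 4 each; 1.17, limma adjusted p = 0.0036).

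Fibril-binding genes had 14 of 16 members tested, of which 8 were called higher and 0 lower, against 14.2% higher and 11.6% lower among all genes tested, and the median log2 fold change was 0.80. Fibroblast, pericyte and smooth muscle, and adipocyte markers, whose counts and sums are given above, also had members called higher, and their part in the levels of these genes was not tested. Ogn, the small proteoglycan osteoglycin, was at 56.1, 41.9, 53.1 and 78.2 FPKM in phytic acid libraries 1 to 4, and at 21.4, 21.6, 14.6 and 14.2 FPKM in MC903 libraries 1 to 4. Each phytic acid library was above each MC903 library (log2 fold change 1.61 ± 0.20, SE; limma, Benjamini-Hochberg adjusted p = 9.1e-04). Dpt, dermatopontin, which binds decorin and fibrils, averaged 186 ± 57 FPKM with phytic acid and 71.8 ± 13.5 FPKM without (SD, n = 4 each; 1.33, limma adjusted p = 0.0031). Fn1, fibronectin, averaged 26.4 ± 8.8 FPKM with phytic acid and 11.4 ± 1.8 FPKM without (SD, n = 4 each; 1.09, limma adjusted p = 0.0117). The 16 genes summed to 781 to 1252 FPKM in the phytic acid libraries and to 592 to 620 FPKM in the MC903 libraries, and the sum in MC903 library 3, 609 FPKM, lay within that of the other MC903 libraries.

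Of the breakdown and uptake genes, 12 of 15 were tested, 1 was called higher and 6 were called lower, against 14.2% higher and 11.6% lower among all genes tested, and the median log2 fold change was -0.42. Mmp13, a collagenase, was at 0.707, 1.75, 4.50 and 5.79 FPKM in phytic acid libraries 1 to 4, and at 185, 374, 27.6 and 87.3 FPKM in MC903 libraries 1 to 4. The groups were separate, with MC903 library 3 the lowest of its group (log2 fold change -4.99 ± 0.73, SE; limma, Benjamini-Hochberg adjusted p = 0.00175). Ctsk, the collagen-cutting protease cathepsin K, averaged 144 ± 15 FPKM with phytic acid and 272 ± 69 FPKM without (SD, n = 4 each; -0.88, limma adjusted p = 0.0089). Mmp2, a gelatinase that also cuts type IV collagen, averaged 39.1 ± 5.6 FPKM with phytic acid and 54.4 ± 6.1 FPKM without (SD, n = 4 each; -0.47, limma adjusted p = 0.0212), a call lost without phytic acid library 1 or 4 or MC903 library 1 or 4 (adjusted p = 0.0563 to 0.0673).

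**Figure D5:**
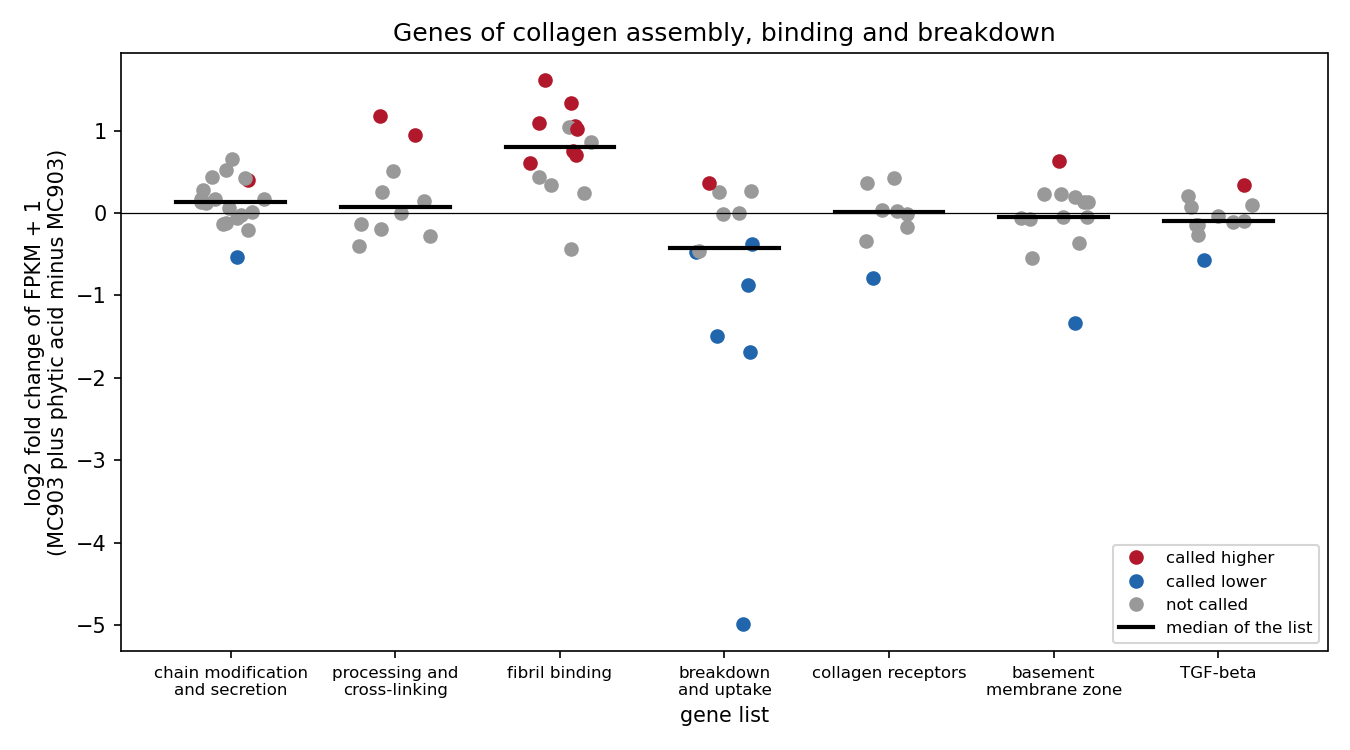
Log2 fold change of FPKM + 1 (MC903 plus phytic acid minus MC903, vertical axis) of each tested gene of 7 lists of collagen assembly, binding and breakdown (horizontal axis, points spread sideways for sight), coloured by call, with the median of each list as a black bar. The medians are 0.80 for fibril binding and -0.42 for breakdown and uptake, and Mmp13 lies at -4.99.

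The lists that follow stand against 14.2% called higher and 11.6% lower among all genes tested. Of 8 tested collagen receptors 1 was called, Adgrg1, a type III collagen receptor, which was lower (-0.79, limma, Benjamini-Hochberg adjusted p = 0.0057). The median of the receptor list was 0.01. Of 13 tested basement membrane zone genes other than collagens, 1 was higher and 1 lower, with a median of -0.04. Dst, the hemidesmosome protein that lies beside type XVII collagen, averaged 19.5 ± 2.8 FPKM with phytic acid and 12.2 ± 0.7 FPKM without (SD, n = 4 each; 0.63, limma adjusted p = 0.0038). Of 11 tested TGF-beta genes 1 was higher and 1 lower, with a median of -0.10. Both calls, Tgfb2 (0.34, limma adjusted p = 0.0433) and the pathway inhibitor Smad7 (-0.57, limma adjusted p = 0.0319), were lost without any single one of several libraries. For Tgfb2 these were the phytic acid libraries 1, 2, 3 and 4 and MC903 libraries 2 and 4 (adjusted p = 0.0592 to 0.112), and for Smad7 phytic acid libraries 2 and 3 and MC903 libraries 2 and 4 (adjusted p = 0.0550 to 0.0631).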

How the data were processed

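RNA was taken from 8 mouse skin samples with TRIzol and made into libraries with a SMARTER mRNA-seq kit, per the labels' protocols. The values were deposited as FPKM, 1 per gene in each library; cutadapt, HISAT2, TopHat2, DESeq and mm10 are named in the submitters' processing notes, without roles or versions. Gene annotation and strandedness were not given in the sources used here, and antisense genes that overlap a chain cannot be told apart. As FPKM is relative to the library total, large changes in abundant genes shift all others.

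From the deposited FPKM, 51 rows without a name (0.0160% to 0.0238% of a column's sum) were left out, and of 21 repeated names the row of highest mean was kept. Values were taken as log2(FPKM + 1), which understates fold changes of low genes. The 12165 genes with at least 1 FPKM in at least 4 of 8 libraries entered a two-sided test in limma 3.58.1 under R 4.3.3 (lmFit, eBayes with trend), with group as the single factor, Benjamini-Hochberg adjustment over all of them and calls at 0.05. Ratios of chains were compared by an exact permutation test over the 70 assignments of 8 libraries to 2 groups of 4. FPKM times exon length (GENCODE M21) gave whole reads, within 0.05, for 97.4% of 17980 genes and for 41 of the 44 chains, and these reads were also fitted with limma voom (11660 genes, and 14508 genes with at least 10 reads in 4 libraries), a choice made after seeing the data. Low read numbers were mostly even, as when both ends of a fragment are counted. Read numbers given here therefore overstate the number of independent fragments. The procedure was tested on simulated data.

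Per-library values are given for called chains and for chains with a mean of at least 50 FPKM, plus others chosen after their values were seen; the text names at most 3 called genes per list, those of smallest p, and 1 that the rule named is not reported here. Members and lists were chosen with earlier results of these data known. Other settings were pseudocounts of 0.1 and 0.01, no filter, a mean of at least 5 FPKM, TPM, median-of-ratios and quantile scaling, library weights, robust eBayes or eBayes without trend, a block for the replicate number, and omission of single libraries.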

Additional observations from a re-analysis of the deposited data

Results flagged for a closer look

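In 9 of 98 groups of 4 libraries 1 library stood far from the other 3 by Dixon's criterion. For independent normal values chance gives about 1 group in 20. FPKM near 0 are not normal, and the groups share the same libraries, so the 9 groups cannot be read as an excess over chance. MC903 library 3 was the high one in 7 of the 9. It had 71.8 FPKM of Col1a1, against 22.4 to 26.7 FPKM in the other MC903 libraries, and 61.1 FPKM of Col1a2, against 29.1 to 30.3 FPKM. It also had 0.754 FPKM of Col4a4 (others 0.488 to 0.529), 2.22 FPKM of Col4a5 (others 0.634 to 0.836) and 2.95 FPKM of Col11a1 (others 0.130 to 0.193). Near the floor of the table it had 0.0857 FPKM of Col25a1 and 0.0585 FPKM of Col26a1. Phytic acid library 4 was high for Col9a3, at 0.395 FPKM against 0.229 to 0.248 FPKM in the other phytic acid libraries, and for Col9a1, at 0.0194 FPKM (4 reads) against 0. MC903 library 3 is also the library of high hair follicle keratins; the part of hair follicles in these chain levels was not tested.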

How the results depend on the processing

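Of 51 fold changes of chains and partner genes, recomputed 793 times, 721 kept direction and side of the threshold, 44 lost a call, 18 gained one and 10 changed sign. Col4a6, Col4a5, Col18a1 and Col23a1 stayed called without each of the 8 libraries and in each setting in which they were tested. For all genes, 1722 higher calls became 1098 with a mean of at least 5 FPKM, 2865 with library weights and 1072 to 2418 with 1 library left out; lower calls (1412) became 941 to 1561. Median-of-ratios scaling turned the split from 1722 higher and 1412 lower to 1469 higher and 1828 lower. Chains called higher numbered 0 with a mean of at least 5 FPKM, which leaves 13 chains, 10 with library weights and 2 to 6 with 1 library left out (6 without phytic acid library 3); chains called lower numbered 5 with median-of-ratios scaling and 2 without any 1 library. Signs changed for Col28a1 with median-of-ratios scaling (-0.0286), quantile normalization (-0.0925) and library weights (-0.0051), and for 4 chains with 1 library left out, over ranges of -0.10 to 0.31 for Col5a2, -0.14 to 0.30 for Col5a3, -0.0135 to 0.50 for Col6a3 and -0.0066 to 0.0621 for Col28a1. With 1 library left out the ratio differences were -0.13 to 0.10 for Col1a1 to Col1a2, 0.08 to 0.39 for Col3a1 to Col1a1, 0.08 to 0.30 for Col5a1 to Col1a1, 0.01 to 0.10 for Col4a1 to Col4a2 and -0.10 to 0.0222 for Col6a1 to Col6a2; the Col1a1 to Col1a2 difference was 0.10 without phytic acid library 3 and 0.09 without MC903 library 3, and the Col6a1 to Col6a2 difference 0.0024 without phytic acid library 1 and 0.0222 without MC903 library 1. The causes were not tested. Deviations of same-numbered libraries from their group means correlated at -0.283, -0.105, -0.286 and 0.225, and those of differently numbered libraries at -0.285 to 0.398. With so few libraries this cannot show whether the numbers pair the samples, which the labels do not say. With the replicate block 1098 genes were called higher, and 2 chains higher and 2 lower, Col14a1 at a limma adjusted p of 0.0703. Chains below 1 FPKM are limited by the added constant and by few reads.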
